A study of Mus musculus with 12 samples.

Results

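The genes described here are those of the box C/D small nucleolar RNAs, named Snord in the mouse. They were chosen as the transcript clusters (the array's probe groups for 1 transcript) with a single gene symbol that starts with Snord, and where a gene had several clusters the one with the highest mean over 12 arrays was taken. This gave 44 genes, from 47 clusters, of 30702 genes with a symbol of their own on the array. Of the 44, 42 were bright enough to be among the 22066 genes tested, and all 42 lay over the limit for dim signals (5.25 on the log2 scale) on all 3 untreated arrays. Snord85 and Snord88c stayed below it too often; their 12 arrays read 4.05 to 5.48 and 4.37 to 5.39, under the negative control median of every array.

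Total RNA of a vessel was measured on 12 Affymetrix arrays from male C57BL/6 mice aged 8 to 10 weeks. The day 0 mice were untreated, and the other mice received angiotensin II, the peptide hormone that constricts arteries and raises blood pressure, by osmotic pump for 1, 3 or 7 days at a dose of 1500 ng per kg per min. Each of the 4 groups had 3 arrays, described as biological replicates. The sources used here give neither the vessel taken nor a group with a pump and no hormone, so that surgery, vehicle and hormone cannot be told apart. The labels name an earlier Affymetrix mouse array, whereas the identifiers in the table are transcript clusters of another design. Signals are on a log2 scale, on which 1 unit is a 2-fold difference, and the scale ends at a ceiling of 19.93.

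Box C/D small nucleolar RNAs are short nuclear RNAs that carry a C box and a D box near their ends. They are bound by Nop56, Nop58, Snu13 and the methyltransferase fibrillarin, and most guide the methylation of ribose in ribosomal RNA by pairing with it. A few, such as U3, U8, U13 and U14, take part in the cleavage, folding or other modification of the ribosomal RNA precursor. In mammals most are cut out of the introns of other genes, so that 1 precursor gives both a spliced host RNA and the small RNA. The RNA was labelled by a standard protocol of the manufacturer for cRNA, and how well that step takes up RNAs of this length was not measured on these arrays. A cluster in an intron also cannot separate the mature small RNA from unspliced host RNA.

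Of the 44 genes, 41 lay inside another gene of the RefSeq annotation. The containing gene, called the host here, was protein-coding for 35 of them, and 13 lay in 11 ribosomal protein genes. The annotation used here holds no strand, so that a containing gene may lie on the opposite strand and need not give rise to the small RNA, and 5 Snord genes lay inside 2 genes each. Snord118, Snord13 and Snord89 lay outside other genes. Promoters from RefSeq (build GRCm38.p6) were found for 31 of the 42 distinct host genes. They are shown here from 150 bases before to 25 bases after the annotated start for 3 hosts. The first, 2410006H16Rik, contains Snord49a and Snord49b, which were both called higher at day 7. Snx5 was called higher together with the Snord17 inside it at day 3, and Eif4g1 contains Snord66, called higher at day 7. Capitals mark the letters CACGTG, which read the same on both strands, and any run of at least 8 pyrimidines (C or T on the printed strand) within 25 bases of the start, the form in which many hosts of small nucleolar RNAs begin.
2410006H16Rik, chr11:62602727-62602901, plus strand: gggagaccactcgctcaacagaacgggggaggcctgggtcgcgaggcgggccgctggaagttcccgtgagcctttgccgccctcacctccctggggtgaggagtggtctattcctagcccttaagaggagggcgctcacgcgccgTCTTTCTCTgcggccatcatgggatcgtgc
Snx5, chr2:144270548-144270722, minus strand: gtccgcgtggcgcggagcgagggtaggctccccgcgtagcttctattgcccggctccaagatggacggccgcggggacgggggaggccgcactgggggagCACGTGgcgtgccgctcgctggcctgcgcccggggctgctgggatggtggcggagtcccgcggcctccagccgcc
Eif4g1, chr16:20672577-20672751, plus strand: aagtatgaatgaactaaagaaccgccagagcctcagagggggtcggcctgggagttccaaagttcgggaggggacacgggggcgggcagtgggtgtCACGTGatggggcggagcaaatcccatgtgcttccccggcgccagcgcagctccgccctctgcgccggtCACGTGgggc

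In windows from 250 bases before to 50 after the start, CACGTG was present in 8 of the 31 host genes (25.8%) and in 8.09% of all 27025 genes with a promoter sequence. Within 25 bases of the start, a pyrimidine run of at least 8 bases was present in 8 of the 31 hosts (25.8%) and in 22.3% of all genes. Of the 3 promoters shown, 2410006H16Rik has a run of 9 and no CACGTG, and Eif4g1 has 2 copies of CACGTG. These are matches of letters, not binding sites.

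The Snord genes were among the brighter features of the array. The mean log2 signal over 12 arrays ranged from 4.56 for Snord85 to 19.93 for Snord69, with a median of 10.87, against 5.84 over all genes. A mean of at least 14 was reached by 17 of the 44, and by 2.34% of all genes. On all 12 arrays, 39 of the 44 lay above the array's negative control median, and 2 lay below it on all 12. The 5 brightest were Snord69, Snord42a, Snord55, Snord82 and Snord61, and the 5 dimmest were Snord85, Snord88c, Snord64, Snord92 and Snord14a. These levels compare probes of different sequence and say little of the amounts of the RNAs.

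No 2 Snord genes had identical values. Of the 1081 pairs among the 47 clusters, 0 shared a value to 4 decimals on any array, and 0 of the 47 had the same 12 values as any other cluster of the table. In the whole table, 1948 clusters (2.95%) fell into 417 sets with the same 12 values. The nearest copies were the 2 clusters of Snord13, with a Pearson r of 0.990 over the 12 arrays, and the 2 of Snord58b, with r = 0.965. The second cluster of Snord118 was 9.11 log2 units dimmer than the first. Each such pair shares a gene symbol and the same RNA samples.

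Values that repeat within a gene were found instead. In 7 of the 44 genes, 1 value to 4 decimals recurred on 3 or more arrays: 19.9315, the ceiling, on 11 arrays for Snord69, 17.9876 on 8 for Snord82, 19.5337 on 6 for Snord42a, 18.7229 on 5 for Snord55, 14.3674 on 4 for Snord118, and a value on 3 arrays each for Snord87 and Snord16a. Such repeats were a feature of bright signals in general: they occurred in 81.7% of all genes with a mean of 16 or more, and in 0.959% of genes under 8. Changes in these 7 genes are less finely measured than in the others, and the change of Snord69, with 11 of 12 arrays at the ceiling, could not be seen.

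Most Snord genes were higher in the mice given angiotensin II by pump than in the untreated mice. The median change over the 42 tested genes was 0.94 log2 units at day 1, 0.71 at day 3 and 0.69 at day 7, against 0.01, 0.08 and 0.09 over all 22066 genes. The change was above 0 in 36, 34 and 35 of the 42. A gene was called changed when limma's test, fitted over all genes and 12 arrays, gave a Benjamini-Hochberg adjusted p under 0.05. At day 1, 8 of 42 were called higher, where 1.99% of all genes were, and 1 lower, where 1.63% were. At day 3 the numbers were 15 higher (4.61% of all genes) and 1 lower (7.14%), and at day 7 they were 17 higher (12.1%) and 2 lower (13.2%). The 3 comparisons share the day 0 arrays.

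Counts of genes whose arrays did not overlap went the other way over the days. All 3 treated arrays lay above all 3 day 0 arrays in 28 of 42 Snord genes at day 1 (11.8% of all genes), in 25 at day 3 (23.3%) and in 20 at day 7 (26.6%). All 3 lay below in 2 on each day (11.5, 21.4 and 20.5% of all genes). On single treated arrays, between 23 (day 7 replicate 1) and 35 (day 1 replicate 3) of the 42 exceeded all day 0 arrays. Of all genes, 49.4 and 27.5% did so on those arrays, so that on day 7 replicate 1 the Snord genes lay close to the background. The number of calls rested on few arrays. At day 1 it fell from 8 higher to 4, 3 and 1 without day 0 replicates 1, 2 and 3, and to 1 and 2 without day 1 replicates 1 and 2, when between 0.458 and 1.5% of all genes were called in either direction. At day 3 it fell from 15 to 7 without day 0 replicate 3 and to 9 without day 3 replicate 2. Of all genes, 3.9 and 4.7% were then called in either direction. At day 7 it lay between 12 and 19 of 42, with 12.9 to 33.9% of all genes called in either direction. The median change moved less, between 0.78 and 0.99 at day 1, 0.68 and 0.84 at day 3, and 0.50 and 0.85 at day 7.

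**Figure D1:**
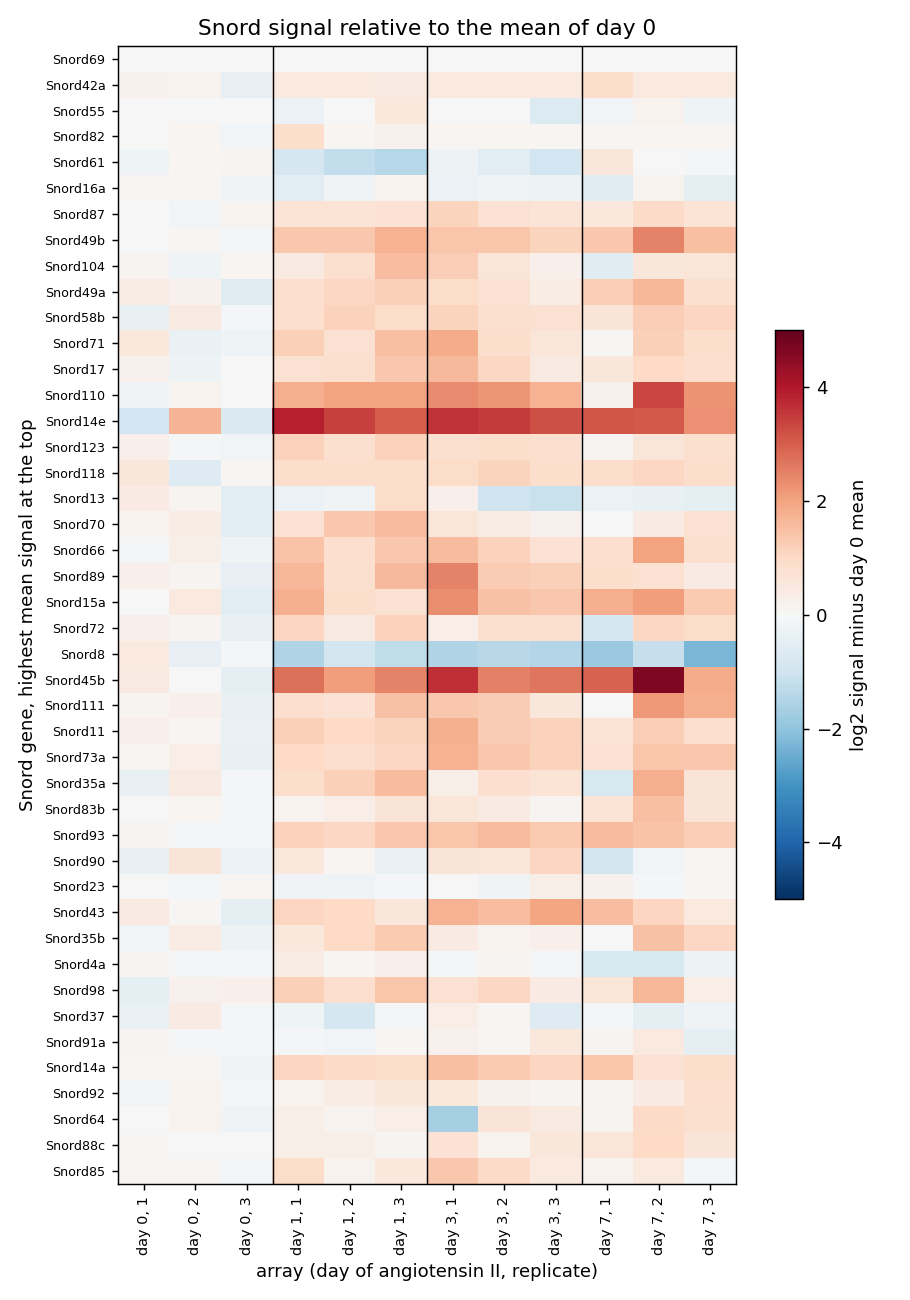
Log2 signal of each of the 44 Snord genes on each of the 12 arrays, minus that gene's mean on day 0, in colour (red higher, blue lower), with genes ordered by mean signal from the top. Most rows turn red from day 1 onwards, Snord14e and Snord45b most deeply, whereas Snord8 turns blue.

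The range of the control features narrowed over the same days. The difference between the medians of positive and negative controls was 2.59 ± 0.05 log2 units on day 0 (SD, n = 3), 2.25 ± 0.29 on day 1, 1.98 ± 0.14 on day 3 and 1.76 ± 0.49 on day 7. Each treated group lay below day 0, with an exact two-sided permutation p of 0.1, the smallest that 3 against 3 allows. The per-array median of the 44 Snord genes went the other way: it was 10.64, 10.52 and 9.99 on day 0, 11.49, 10.83 and 11.37 on day 1, 12.19, 11.22 and 11.24 on day 3, and 11.45, 11.95 and 11.17 on day 7. All 9 treated arrays lay above all 3 day 0 arrays. Day 1 replicate 3 had a control range of 2.51, close to day 0, and a Snord median of 11.37. Day 7 replicate 1 had the narrowest range, 1.20, and a Snord median of 11.45. A median over genes of such different brightness is not a change per gene. Taken per gene against its day 0 mean, the median change on day 7 replicate 1 was 0.22 over the tested Snord genes and 0.117 over all genes. On the other treated arrays it was 0.554 to 0.99 for the Snord genes and -0.0367 to 0.0844 for all genes.

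**Figure D2:**
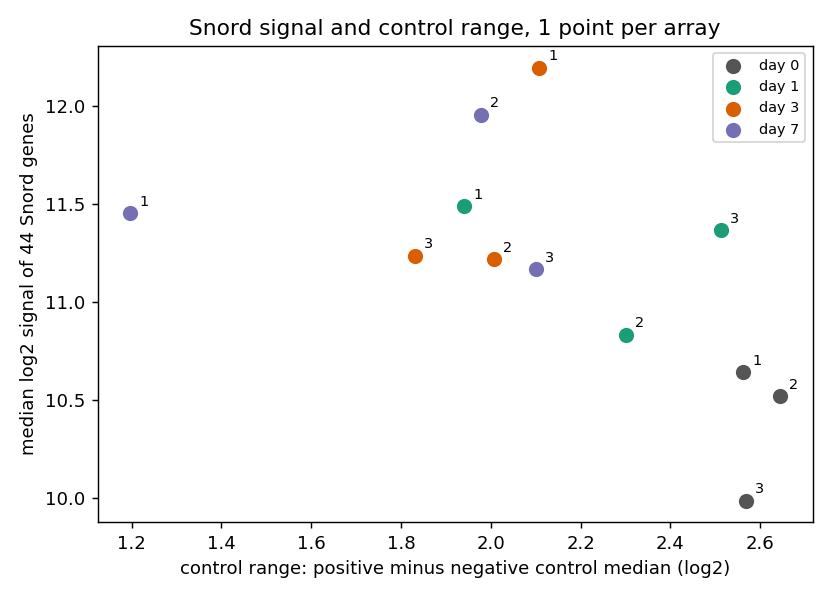
Median log2 signal of the 44 Snord genes against the control range (positive minus negative control median, log2), 1 point per array, coloured by day and numbered by replicate. The 3 day 0 arrays sit at the lower right, with ranges of 2.56 to 2.64 and medians of 9.99 to 10.64, and all treated arrays lie above them.

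How far the Snord signals rose depended on how the arrays were put on a scale. With the control range as a covariate in the fit, the median change was 1.05, 1.03 and 1.10 at days 1, 3 and 7, with 16, 10 and 10 of 42 called higher (2.89, 1.23 and 2.2% of all genes) and 1, 0 and 0 lower (1.66, 0.87 and 1.29%). Rescaling every array to 1 control range gave medians of 1.48, 2.39 and 3.26, with 0, 3 and 19 called higher (0.0136, 1.16 and 7.95% of all genes) and 0 lower on each day (0.0906, 0.811 and 3.89%). Quantile normalization gave 0.65, 0.29 and 0.17, with 2, 8 and 8 called higher (1.21, 2.47 and 5.69% of all genes) and 1, 2 and 2 lower (0.752, 5.75 and 18.7%). Centring each array on its median gave 0.90, 0.53 and 0.42, with 6, 11 and 9 called higher (1.31, 2.14 and 5.73% of all genes) and 1, 2 and 2 lower (0.666, 7.16 and 21.9%). The median of the 42 genes was above that of all genes under each of these scales on each day. Rescaling, however, multiplies the distance of each signal from the negative control median, and by more on arrays with a narrow range. It therefore moves bright genes most, and the Snord genes had a median signal of 10.87 against 5.84 over all genes. Under rescaling the comparison of medians cannot tell a rise of these genes from their brightness. Of the 43 calls of named genes, 22 were kept with the covariate. Snord93 and Snord49b stayed called at days 1, 3 and 7. At days 3 and 7 the adjusted p in limma was 0.113 and 0.132 for Snord45b and 0.0949 and 0.229 for Snord14e. For Snord15a it was 0.169 and 0.252. Snord14e kept its call at day 1 (adjusted p = 0.042), and Snord43 changed by 0.29 at day 7 (adjusted p = 0.721). Whether the control range caused any single call was not tested.

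At like brightness, the median change of the Snord genes was above that of protein-coding genes in each of 6 bins of mean signal at days 1 and 7. Below a mean of 8, the 8 Snord genes had a median change of 0.54 at day 7 and the 11194 protein-coding genes one of 0.07, with 1 of 8 Snord genes and 11.9% of the protein-coding genes called higher. Between 8 and 10 the medians were 0.95 for 7 Snord genes and -0.37 for 2356 protein-coding genes, and between 10 and 12 they were 0.91 for 7 and -0.65 for 528. Between 12 and 14 they were 0.38 for 3 and -0.53 for 137, between 14 and 16 0.87 for 6 and -0.49 for 43, and from 16 upwards 0.19 for 11 and 0.00 for 36. The gap was thus smallest in the brightest bin, where many signals repeat. At day 1 the bins gave 0.32, 0.88, 1.11, 1.21, 1.09 and 0.48 for the Snord genes, and 0.01, -0.07, -0.13, -0.05, -0.06 and 0.00 for the protein-coding genes. These medians are a description of the bins, and no test was made between them.

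**Figure D3:**
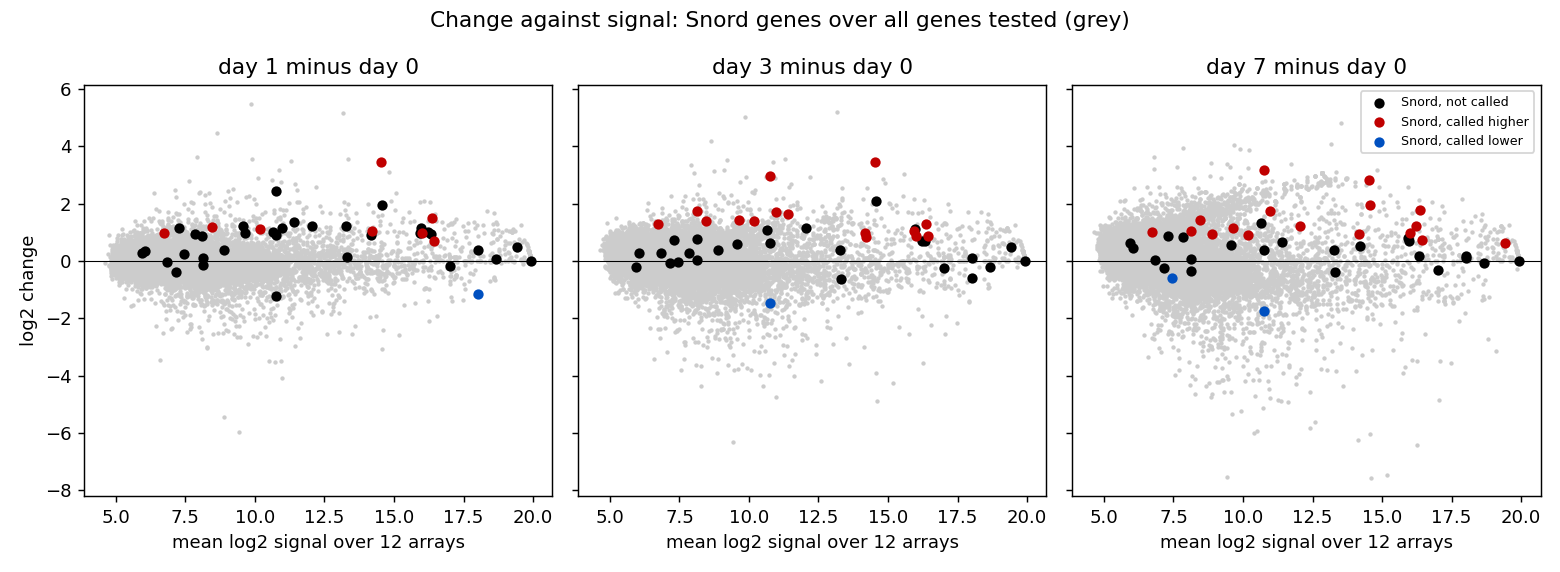
Log2 change from day 0 at days 1, 3 and 7 against mean log2 signal over 12 arrays, with all 22066 genes tested in grey and the 42 Snord genes in black (not called), red (called higher) or blue (called lower). Most Snord genes lie above 0 across the range of signals, with 8, 15 and 17 called higher.

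The U14 family, which takes part in the processing of small-subunit ribosomal RNA, had 2 members with a cluster of their own, and both rose on all 3 days. Snord14e, in an intron of the chaperone gene Hspa8, read 11.11, 13.77 and 11.37 on day 0, 15.99, 15.49 and 15.12 on day 1, 15.69, 15.57 and 15.32 on day 3, and 15.23, 15.16 and 14.38 on day 7. Day 0 replicate 2 stood far above the other day 0 arrays, and every treated array was higher than it. The change was 3.45 ± 0.61 (SE) at day 1 (limma, adjusted p = 0.0201), 3.45 at day 3 (adjusted p = 0.0103) and 2.84 at day 7 (adjusted p = 0.0116). Snord14a, in the ribosomal protein gene Rps13, was far dimmer, at 6.02, 6.02 and 5.74 on day 0 and 6.99, 6.90 and 6.83 on day 1. Its change was 0.98 ± 0.18 at day 1, 1.29 at day 3 and 1.00 at day 7 (limma, adjusted p = 0.0218, 0.00449 and 0.00545).

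Snord45b, a guide of small-subunit methylation in an intron of Rabggtb, a subunit of the enzyme that attaches geranylgeranyl groups to Rab proteins, read 9.03, 8.63 and 8.15 on day 0. It read 11.34, 10.70 and 11.10 on day 1, 12.24, 11.13 and 11.29 on day 3, and 11.55, 13.28 and 10.47 on day 7. No treated array overlapped day 0, and the spread was widest on day 7. The change passed the test at day 3 (2.95 ± 0.61; limma, adjusted p = 0.0176) and day 7 (3.17; adjusted p = 0.00789), and was 2.44 at day 1 (adjusted p = 0.0626).

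Snord93, a guide inside the noncoding RNAs Gm42228 and 2700038G22Rik, had the smallest p-values of the Snord genes. Its signals were 7.58, 7.40 and 7.36 on day 0, 8.60, 8.48 and 8.80 on day 1, 8.82, 9.02 and 8.74 on day 3, and 9.04, 8.87 and 8.67 on day 7. Replicates lay close together and far above day 0. The change was 1.18 ± 0.12 at day 1, 1.41 at day 3 and 1.42 at day 7, with adjusted p of 0.0033, 0.00102 and 0.000578 in limma.

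Snord11 and Snord70 lie in the same host, Nop58, itself a core protein of these particles. Snord11 rose on all 3 days, by 1.11 ± 0.20, 1.40 and 0.91 (limma, adjusted p = 0.0238, 0.0054 and 0.0137). Its day 0 arrays read 9.55, 9.41 and 8.98 and its treated arrays 9.98 to 11.08. Snord70 changed by 1.23 at day 1, 0.40 at day 3 and 0.38 at day 7 and passed the test on none of them (adjusted p = 0.0601, 0.398 and 0.35). A difference between the pair was not tested.

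Snord43, in the ribosomal protein gene Rpl3, read 7.64, 7.24 and 6.71 on day 0, 8.94, 8.75 and 9.16 on day 3, and 8.72, 8.28 and 7.69 on day 7. It rose by 1.75 ± 0.29 at day 3 (limma, adjusted p = 0.00867) and 1.03 at day 7 (adjusted p = 0.0332). Snord83b, from the same host, was called higher at day 7 with a change of 0.95. Snord110, inside Nop56, read 12.89, 13.25 and 13.10 on day 0 and 13.31, 16.42 and 15.33 on day 7, so that day 7 replicate 1 barely cleared day 0. Its change of 1.94 ± 0.61 passed at day 7 (limma, adjusted p = 0.0451), and those of 1.96 and 2.11 at days 1 and 3 did not (adjusted p = 0.124 and 0.0544). Snord66, in the translation factor gene Eif4g1, rose by 1.21 at day 7 (adjusted p = 0.0332), with day 0 arrays at 11.09, 11.47 and 10.95 and day 7 arrays at 12.01, 13.17 and 11.96.

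Among guides of the large subunit, Snord49b and Snord49a share the noncoding host 2410006H16Rik, whose promoter is printed above. Snord49b read 15.26, 15.30 and 15.15 on day 0, 16.59, 16.59 and 16.99 on day 1, 16.62, 16.64 and 16.34 on day 3, and 16.59, 17.70 and 16.74 on day 7. It rose by 1.49 ± 0.26, 1.30 and 1.77 at days 1, 3 and 7 (limma, adjusted p = 0.0188, 0.0153 and 0.00254). Snord49a changed by 1.02, 0.68 and 1.23 and passed the test at day 7 (adjusted p = 0.0158), with 15.87, 15.71 and 14.90 on day 0 and 16.74, 17.15 and 16.29 on day 7.

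Snord15a, in the ribosomal protein gene Rps3, read 9.84, 10.32 and 9.31 on day 0, 12.15, 11.30 and 11.18 on day 3, and 11.63, 11.93 and 11.11 on day 7. It rose by 1.72 ± 0.38 at day 3 and 1.73 at day 7 (limma, adjusted p = 0.0214 and 0.0128). Snord58b rose by 0.97, 0.89 and 0.99 and Snord87 by 0.70, 0.86 and 0.73 at days 1, 3 and 7, all past the test as deposited, but after quantile normalization their day 7 changes turned to -0.065 and -0.32. Snord17 rose at day 3 (1.04 ± 0.29; adjusted p = 0.0456). Snord35a, the guide of the Rpl13a gene that had a cluster of its own, read 8.61, 9.43 and 8.91 on day 0 and 8.19, 10.79 and 9.61 on day 7. It changed by 1.22, 0.60 and 0.55 and did not pass the test on any day (adjusted p = 0.301, 0.474 and 0.449). Snord32a, Snord33 and Snord34 of the same gene shared 1 cluster with Rpl13a, which changed by 0.01, -0.03 and -0.13 (adjusted p = 1, 0.837 and 0.224 over all clusters).

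Of the 3 RNAs outside other genes, Snord118 and Snord89 passed the test on at least 1 day and Snord13 on none. Differences between them were not tested. Snord118, the U8 RNA needed for maturation of the large subunit, read 14.03, 12.83 and 13.55 on day 0 and between 14.37 and 14.57 on all treated arrays, 4 of which repeat 1 value. It rose by 0.98 ± 0.24 at day 3 and 0.94 at day 7 (limma, adjusted p = 0.0296 and 0.0215), and by quantile normalization its day 7 change was -0.016. As the mean of its 2 clusters it changed by 0.51 at day 7 (adjusted p = 0.0803). Snord13, the U13 RNA that helps to acetylate small-subunit ribosomal RNA, read 13.92, 13.63 and 12.99 on day 0 and 13.22, 13.13 and 13.05 on day 7. Its changes of 0.15, -0.62 and -0.38 did not pass the test (adjusted p = 0.965, 0.352 and 0.502). Snord89 read 10.75, 10.63 and 10.06 on day 0 and 12.96, 11.77 and 11.65 on day 3, when it rose by 1.65 ± 0.37 (limma, adjusted p = 0.0228). No cluster of U3 carried a Snord symbol of its own.

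Snord73a, inside the ribosomal protein gene Rps3a1, rose by 1.42 ± 0.23 at day 3 and 1.16 at day 7 (limma, adjusted p = 0.00741 and 0.00803). Snord123, inside the noncoding RNA Snhg18, read 13.84, 13.49 and 13.46 on day 0 and 14.75, 14.39 and 14.74 on day 1. It rose by 1.03 ± 0.18 at day 1 and 0.85 at day 3 (adjusted p = 0.018 and 0.0175), and its change of 0.51 at day 7 did not pass the test (adjusted p = 0.0578). Snord42a, a guide close to the ceiling, rose by 0.63 at day 7 (adjusted p = 0.0267), where its arrays read 19.93, 19.53 and 19.53.

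Few Snord genes fell. Snord8, a guide of U6, the small nuclear RNA of the spliceosome, read 12.35, 11.48 and 11.79 on day 0, 10.38, 10.95 and 10.61 on day 1, 10.37, 10.49 and 10.39 on day 3, and 10.03, 10.74 and 9.59 on day 7. No treated array reached the lowest of day 0. The change was -1.46 ± 0.30 at day 3 and -1.76 at day 7 (limma, adjusted p = 0.0169 and 0.00471), and -1.23 at day 1 (adjusted p = 0.0566). After rescaling to the control range it was 0.34 at day 7.

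Snord61, a guide of the small subunit inside the splicing factor gene Rbmx, was called lower at day 1. It read 18.18, 18.51 and 18.53 on day 0, 17.56, 17.20 and 16.97 on day 1, 18.17, 17.83 and 17.46 on day 3, and 18.99, 18.45 and 18.33 on day 7. The change was -1.17 ± 0.23 at day 1 (limma, adjusted p = 0.0307), -0.59 at day 3 (adjusted p = 0.139) and 0.18 at day 7 (adjusted p = 0.575), and rescaling turned the first to 0.53. Snord4a, one of the guides in Rpl23a, read 7.70, 7.51 and 7.46 on day 0, 7.92, 7.63 and 7.82 on day 1, and 6.80, 6.76 and 7.31 on day 7. It fell at day 7 (-0.60 ± 0.15; limma, adjusted p = 0.0239), whereas Snord42a from the same host rose.

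Between treated days few Snord genes were called. Day 3 against day 1 and day 7 against day 3 gave 0 calls among the 42 in limma, with 3 and 7 at an unadjusted p under 0.05. Of all genes, 0% were called in the first, and 0.113% higher and 0.154% lower in the second. Day 7 against day 1 gave 1 higher and 1 lower, with 1.88% and 2.91% of all genes. These were Snord61, by 1.34 ± 0.23 (limma, adjusted p = 0.0232), and Snord4a, by -0.83 ± 0.15 (adjusted p = 0.0261). The median changes were 0.00, 0.00 and -0.03 for day 3 against day 1, day 7 against day 1 and day 7 against day 3.

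**Figure D4:**
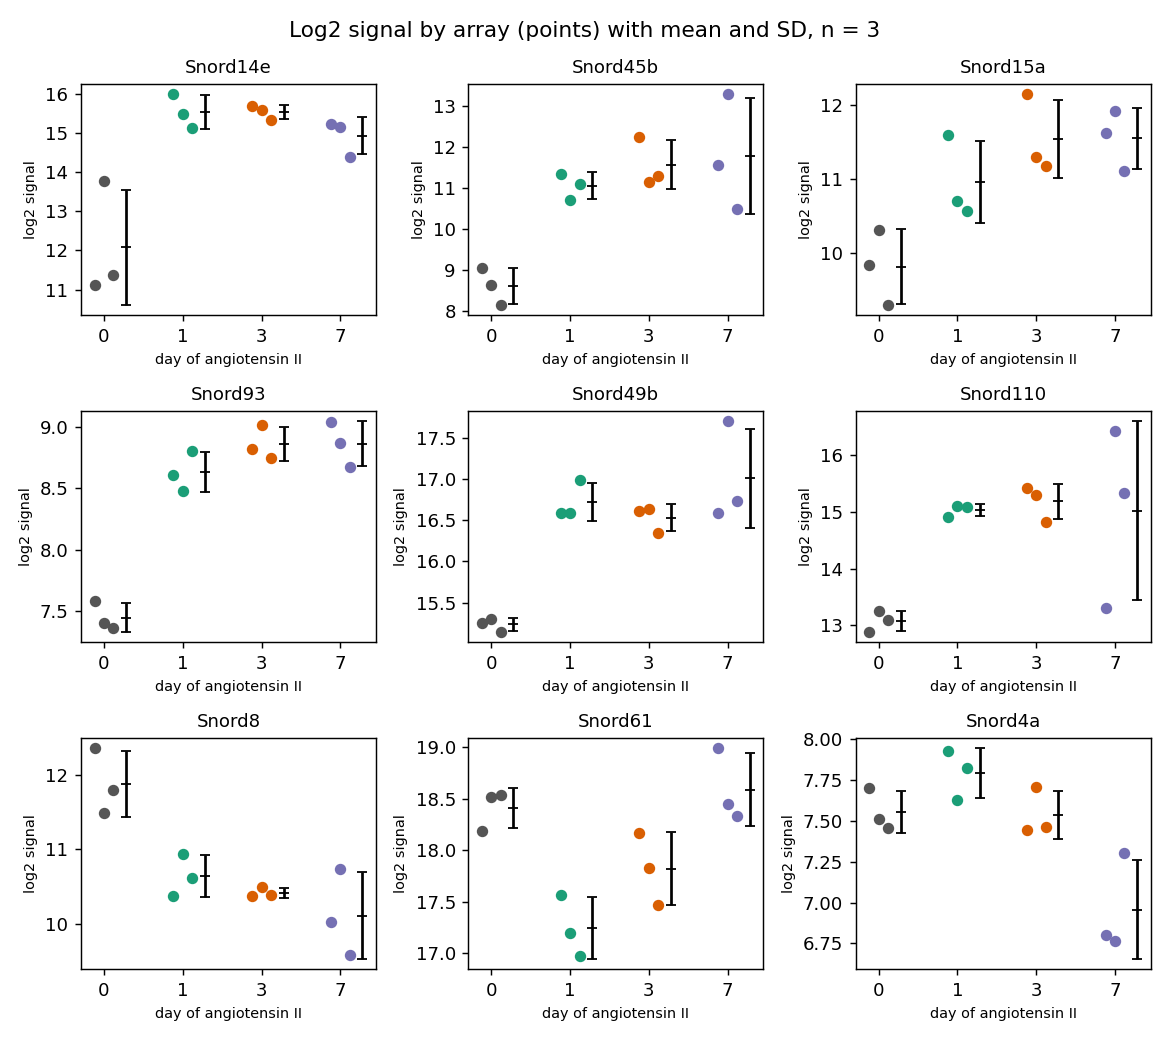
Log2 signal of 9 Snord genes on each array (points), by day of angiotensin II, with the mean and SD of the 3 arrays beside them; each panel has its own vertical axis. Snord14e, Snord45b, Snord15a, Snord93, Snord49b and Snord110 lie higher on treated days, Snord8 lies lower, Snord61 dips at day 1, and Snord4a is lowest at day 7.

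Among the genes that contain Snord genes, those with a cluster of their own did not rise with them as a group. For 20 Snord genes, 23 hosts had a cluster of their own below the ceiling, which made 24 pairs. In 8 of these pairs, 4 Snord genes were each set beside both genes that contain them, and a pair may be with a gene on the opposite strand. The median change of the hosts was -0.05 at day 1, -0.15 at day 3 and -0.20 at day 7, and that of the 20 Snord genes 0.55, 0.57 and 0.49. The Snord gene had the larger change in 16, 19 and 21 of the 24 pairs. Of the pairs whose Snord gene was called higher, 5, 7 and 5 by day, the host was also called higher in 1, 2 and 1. Of the 23 hosts, 1, 2 and 2 were called higher (1.99, 4.61 and 12.1% of all genes) and 0, 1 and 5 lower (1.63, 7.14 and 13.2%). Hosts read only through a shared cluster, such as 2410006H16Rik, are not among the pairs. These pairs are a description, and the difference within a pair was not tested.

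Single pairs showed each form. Snhg18 fell by 1.27 at day 3 and by 1.72 at day 7 (limma, adjusted p = 0.00383 and 0.000817), while Snord123 inside it was at 0.85 and 0.51. Ncl, the nucleolin gene, changed by -1.15 ± 0.26 at day 7 (adjusted p = 0.0136), with Snord82 at 0.11 on a repeated value. Rps3a1 changed by -0.33 at day 3 (adjusted p = 0.165), when Snord73a rose by 1.42. In 3 pairs the host and its guide were both called higher on at least 1 day. 2700038G22Rik rose by 1.12 at day 1 and 0.85 at day 3 (limma, adjusted p = 0.0291 and 0.0373), as Snord93 did. Snx5 rose by 0.98 at day 3 (adjusted p = 0.0283), as Snord17 did, and by 0.88 at day 7 (adjusted p = 0.0267), when Snord17, at 0.80, did not pass the test (adjusted p = 0.0653). Mcmdc2 rose by 0.49 at day 7 (adjusted p = 0.0285), as Snord87 did, from a mean of 4.97 on day 0, below the limit for dim signals. Snhg6, the other gene that contains Snord87, changed by -0.01 at day 7 (adjusted p = 0.975). Hspa8 was at the ceiling on day 0, so its own change could not be read.

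**Figure D5:**
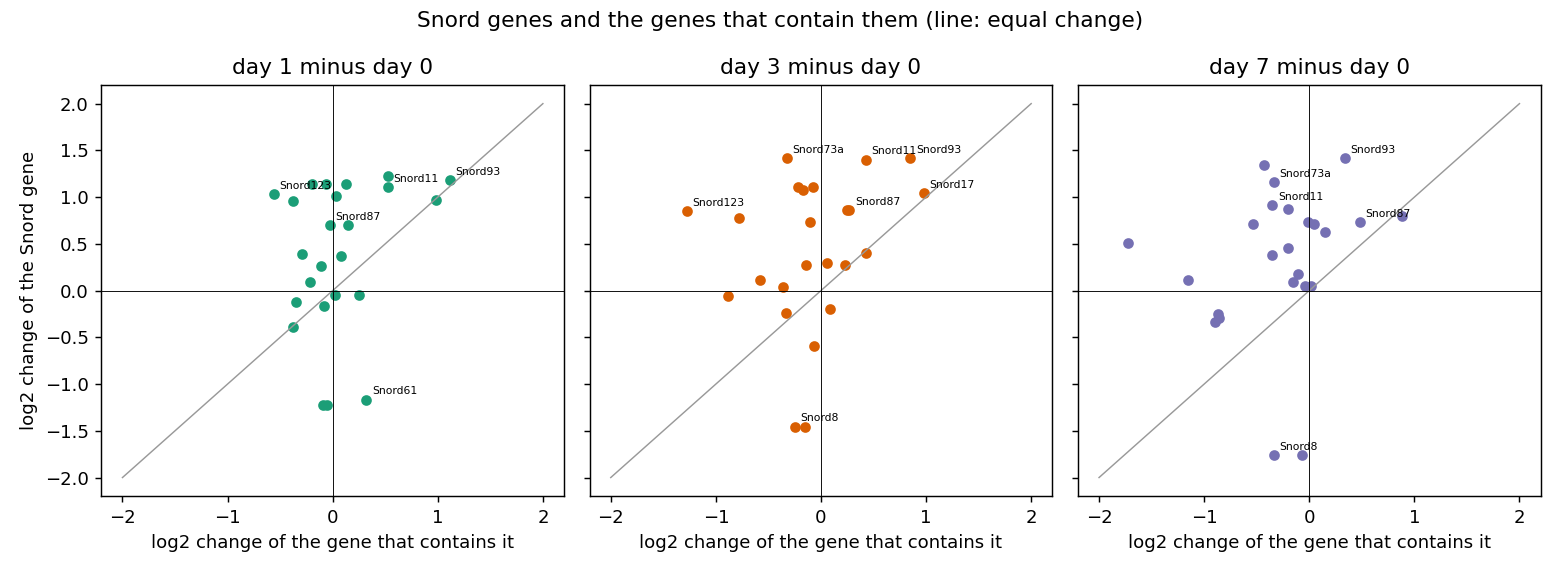
Log2 change from day 0 of each Snord gene (vertical) against that of the gene that contains it (horizontal) in 24 pairs, at days 1, 3 and 7; Snord genes called higher or lower are named, and the grey line marks equal change. In 16, 19 and 21 of the 24 pairs the point lies above the line.

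Another 25 clusters carried a Snord symbol together with other symbols, often that of the host, and were tested over all 44015 clusters that passed the filter. At day 1, limma called 0 (0.741% of all clusters were called higher), with 9 at an unadjusted p under 0.05; 6 rose at day 3 (2.24%) and 4 at day 7 (9.27%). At day 3 they included the noncoding hosts Gas5 with Snord47 (0.68; limma, adjusted p = 0.0336), Snhg1 with Snord22 (0.87; adjusted p = 0.0122) and Zfas1 with Snord12 (0.51; adjusted p = 0.0174). The cluster of 2410006H16Rik with Snord65 rose by 0.72 at day 3 and 0.63 at day 7 (adjusted p = 0.0454 and 0.0396). Rps3 with Snord15b, at -0.06 and -0.31, and Hspa8 with Snord14c, Snord14d and Snord14e, at -0.29 and -0.69, did not pass the test on those days (adjusted p = 0.728 and 0.0717, and 0.581 and 0.136). The Hspa8 cluster read 14.89 on all day 1 and day 3 arrays, on day 0 replicates 1 and 3 and on day 7 replicate 2. Day 0 replicate 2 read 15.75. With such repeated values its change is less finely measured.

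Identical values did occur in this shared group. The 3 clusters of Snord116l1 and Snord116l2 with Ipw and Gm26504, from the imprinted locus that in humans is tied to Prader-Willi syndrome, belonged to a set of 11 clusters with the same 12 values. They therefore count as 1 measurement. It read 11.35, 12.99 and 11.10 on day 0, 12.54, 12.21 and 9.83 on day 1, 12.21, 12.33 and 12.90 on day 3, and 14.87, 15.49 and 13.23 on day 7, above day 0 on all 3 arrays. The change of 2.72 at day 7 did not pass the test over all clusters (limma, adjusted p = 0.0506). Snord64, the 1 Snord gene of that locus with a cluster of its own, changed by 0.27, -0.19 and 0.63 (adjusted p = 0.925, 0.818 and 0.361), and day 3 replicate 1 read 4.10 where the other arrays read 5.59 to 6.71.

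Among other small RNAs, the H/ACA class was higher too, and the Cajal body RNAs were mixed. The H/ACA small nucleolar RNAs, named Snora, guide the conversion of uridine to pseudouridine. Of 17 tested, 2, 8 and 9 were called higher at days 1, 3 and 7 (1.99, 4.61 and 12.1% of all genes) and 0 lower (1.63, 7.14 and 13.2%), with median changes of 0.88, 1.39 and 1.29. Of the 6 Cajal body RNAs, named Scarna, 1, 1 and 2 were called higher and 0, 1 and 1 lower, with median changes of -0.03, 0.25 and 0.30. Scarna17 rose by 2.00 at day 1 (limma, adjusted p = 0.0216). On that day Scarna6, Scarna9 and Scarna10 were at -0.78, -0.55 and -0.45 and did not pass the test. Scarna6 was called lower at day 3 (-1.10; limma, adjusted p = 0.0246) and day 7 (-1.05; adjusted p = 0.0179). Genes annotated as small nuclear RNAs (765 tested) had median changes of 0.19, 0.32 and 0.37. Of these, 86, 140 and 159 were called higher (11.2, 18.3 and 20.8%) and 0, 2 and 1 lower, so that calls above the share of all genes were not particular to the Snord genes. The 14294 protein-coding genes had medians of 0.00, 0.01 and 0.01.

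The genes for the proteins of these particles gave few calls. Of 10 tested for core and assembly proteins of the box C/D particle, limma called 0 on any day, with 1, 2 and 1 at an unadjusted p under 0.05 and median changes of 0.06, 0.02 and -0.01. The gene of fibrillarin, Fbl, changed by 0.23 ± 0.10, 0.26 and 0.12 (limma, adjusted p = 0.287, 0.13 and 0.37), and Nop58 by 0.52 ± 0.32, 0.43 and -0.35 (adjusted p = 0.498, 0.382 and 0.406). The counts that follow are by day and stand beside 1.99, 4.61 and 12.1% of all genes called higher and 1.63, 7.14 and 13.2% called lower. Of 6 genes for H/ACA proteins 0, 2 and 1 were lower. Of 19 for the U3 processome, the complex that cuts the small-subunit precursor, 0, 0 and 3 were lower and 0 higher. Genes of small RNA maturation and the nucleolus had 0, 2 and 3 of 15 lower and 0 higher. Among 11 genes for RNA polymerase I and its factors, 1, 1 and 0 were higher and 0, 1 and 2 lower; the 1 that rose was Myc, at 0.58 and 0.56 (adjusted p = 0.0453 and 0.0261). Of 24 tested protein-coding hosts on a general list, 0, 0 and 0 were higher and 0, 1 and 7 lower, below the share of all genes at day 3 and above it at day 7. Of 8 noncoding hosts 0, 1 and 2 were higher and 0, 1 and 1 lower.

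Marker RNAs of several cell types changed over the same days. The counts of calls stand beside 1.99, 4.61 and 12.1% of all genes called higher and 1.63, 7.14 and 13.2% called lower. Smooth muscle markers fell in 0, 2 and 6 of 6 at days 1, 3 and 7. Their mean log2 level went from 15.94 to 16.20 on the day 0 arrays to 9.98 to 13.37 at day 7. Acta2 among them had means of 19.93 on days 0 and 1, at or next to the ceiling. Macrophage markers rose in 4, 4 and 3 of 4, from 7.30 to 7.64 on day 0 to 9.02 to 9.79 on day 1 and 8.24 to 9.40 at day 7. Fibroblast markers rose in 0, 1 and 2 of 3, and cardiac muscle markers in 0, 0 and 3 of 3, from 5.91 to 6.24 on day 0 to 7.94 to 8.09 at day 7. Endothelial markers fell in 0, 0 and 1 of 4, adipocyte markers fell in 1, 0 and 0 of 4 and rose in 0, 0 and 1, skeletal muscle markers rose in 0, 0 and 2 of 3, and neuron markers gave 0 calls of 3 (0, 0 and 1 at an unadjusted p under 0.05). All 3 T cell markers lay below the negative control median on all 12 arrays. In such bulk RNA, fewer cells of a type and less RNA per cell cannot be told apart, and the part of cell makeup in the Snord changes was not tested.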

How the data were processed

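The authors deposited log2 signals, 1 per transcript cluster and array. Per the submitters' processing notes they came from Affymetrix Expression Console. Version, background correction and normalization: not given in the sources used here. No further normalization was applied. Of 72688 features, 65956 were transcript clusters and 6732 controls (1324 positive, 5222 negative). Gene symbols came from the platform annotation and were updated through RefSeq synonyms, which left 31258 clusters with 1 symbol and 30702 genes. Genes entered the test when 3 or more of the 12 arrays were at or over 5.25, the 40th percentile of clusters. Limma 3.58.1 in R 4.3.3 fitted group means over all 12 arrays, with empirical Bayes and no trend, and Benjamini-Hochberg adjustment over all 22066 genes. The number of arrays limits the precision. The replicates are called biological and no separate mice are named, so p-values measure the spread between these samples.

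The members and gene lists were chosen with earlier results of these data known. Named were, against day 0, up to 8 called genes with the largest change in each direction whose 3 treated arrays all lay beyond day 0, up to 4 between treated days, the 5 brightest and the 5 dimmest, U3, U8, U13, guides of Rpl13a, genes with repeated values, and hosts; the shared clusters, Snord64, Snord70 and Snord83b were added after their values were seen. Lists are described by counts and medians, with no set test. Lists for Snord113, Snord114, Snord115, Snord116 and the guides of Gas5 and Snhg1 had no cluster with a symbol of its own. RefSeq gene positions, which give no strand here, were used only to find which gene contains another.

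Same-numbered arrays of days 1 and 7 deviated together (correlations 0.61, 0.36 and 0.66), and in the other comparisons at least 1 correlation was 0.1 or lower. The main fit took no arrays as pairs in any comparison. Replicate numbers entered only as a block among the alternatives. Alternatives were quantile normalization, median centring, rescaling to 1 control range, the control range as a covariate, no filter and a stricter one (60th percentile), averaging a gene's clusters, trend with robust estimation, a replicate block, only the 6 arrays compared, leaving out each array, and, chosen after seeing the data, leaving out genes with repeated values. Taking 1 of each set of identical members was not run, since no such set exists. The procedure was tested on simulated data.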

Additional observations from a re-analysis of the deposited data

Results flagged for a closer look

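Snord61 and Snord4a changed differently from day 0 at day 7 and at day 1, by the direct test of day 7 against day 1. For Snord61 the difference was 1.34 log2 units (limma, adjusted p = 0.0232): all 3 day 1 arrays, at 16.97 to 17.56, lay below all day 0 arrays, and the day 7 arrays, at 18.33 to 18.99, did not. For Snord4a it was -0.833 (adjusted p = 0.0261): the day 1 arrays read 7.63 to 7.92 and the day 7 arrays 6.76 to 7.31. With the replicate number as a block, which the main fit did not use, both kept their call (limma, adjusted p = 0.0229 and 0.038). With the control range as a covariate neither did (adjusted p = 0.09 and 0.108), nor when only the 6 arrays compared were fitted (adjusted p = 0.195 and 0.2).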

How the results depend on the processing

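Of the 43 calls of named genes, the direction held in all 43 under centring, the covariate, no filter, the stricter filter, the mean of clusters, trend, the replicate block, the 6 arrays compared and each array left out, in 40 under quantile normalization and in 41 under rescaling. The calls kept were 23 under quantile normalization, 32 under centring, 12 under rescaling, 22 with the covariate, 25 with 6 arrays, 41 to 43 under the stricter filter, no filter, the mean of clusters, trend and the block, and 23 to 41 with an array left out. Under quantile normalization Snord58b, Snord87 and Snord118 had changes of -0.065, -0.32 and -0.016 at day 7, and under rescaling Snord61 had 0.53 at day 1 and Snord8 0.34 at day 7.

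By quantile normalization 2, 8 and 8 Snord genes were called higher at days 1, 3 and 7, 2 lower at day 3 and 2 lower for day 7 against day 1; the median was 0.17 at day 7 and -0.48 for day 7 against day 1. Centring gave 9 higher at day 7 and 2 lower at day 3. Rescaling gave 0 and 3 higher at days 1 and 3 and 0 lower at days 1, 3 and 7 and for day 7 against day 1; medians were 1.48, 2.39 and 3.26, and 0.92, 1.78 and 1.22 for day 3 against day 1, day 7 against day 1 and day 7 against day 3. The covariate gave 16 and 10 higher at days 1 and 7, 0 lower at days 3 and 7, and 0 higher and 0 lower for day 7 against day 1. The stricter filter gave 2 lower at day 1, with 917 of all genes called in either direction. With 6 arrays there were 5 higher and 0 lower at day 1, 9 higher and 1 lower at day 7, and 0 and 0 for day 7 against day 1. With 1 array left out, 1 to 11, 7 to 17 and 12 to 19 were higher at days 1, 3 and 7 and 0 to 2, 0 to 1 and 1 to 2 lower. Of all genes, 0.458 to 5.01, 3.18 to 15.8 and 12.9 to 33.9% were called in either direction in these fits. For day 7 against day 1 both counts then lay between 0 and 1 higher and 0 and 2 lower, and for day 7 against day 3 there were 0 to 1 lower. The cause of these differences was not tested.

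Scaling moved the median of all genes at day 7 from 0.09 to -0.10 (quantile), -0.18 (centring) and 0.21 (rescaling), and at day 3 from 0.08 to -0.10 under centring. The share of all calls that were higher was 54.9, 39.3 and 47.9% at days 1, 3 and 7, against 61.7, 30.0 and 23.3% (quantile), 66.3, 23.0 and 20.7% (centring), 13.04, 58.8 and 67.2% (rescaling) and 63.4, 58.6 and 63.0% (covariate). The replicate block gave 7, 14 and 17 higher (2.06, 5.21 and 12.0% of all genes) and 1, 1 and 2 lower (1.65, 7.45 and 14.2%). Of the 43 calls it ended that of Snord87 at day 1 (limma, adjusted p = 0.0619). By the labels, same-numbered replicates share only a number. Without the 7 genes with repeated values, 7 of 35 were called higher at day 1, where 1.99% of all genes were in the main fit. Signals near the ceiling limit what can be read for the brightest genes.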

Other observations

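Genes annotated as small nucleolar RNAs but without a Snord name were also examined, a grouping made after their values were seen. Of 766 such genes tested, 168 lie inside Snhg14, the long noncoding RNA of the locus that holds Snord64 and the Snord116 copies. Their median change was -0.12 at day 1, 0.59 at day 3 and 2.40 at day 7, and 118 of 168 were called higher at day 7 by limma (12.1% of all genes were). The 598 genes elsewhere had medians of 0.20, 0.59 and 0.66, with 155 called higher at day 7. The 168 genes held only 76 distinct rows of values, the largest set with 33 genes of the same 12 values, so their count is not one of separate measurements. The per-array median inside Snhg14 was 9.17, 11.21 and 10.13 on day 0, 8.37 to 10.97 on days 1 and 3, and 12.95, 13.07 and 11.54 on day 7. The cluster of Snhg14 itself changed by -0.12, 0.09 and 0.15 (adjusted p = 0.814, 0.673 and 0.4).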
